A study of Mus musculus with 2 samples.

Results

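The retinoid receptor and retinoid handling genes described here are *Rxra*, *Rxrb* and *Rxrg*, which encode retinoid X receptors, *Rara* and *Rarb*, which encode retinoic acid receptors, *Aldh1a1*, an enzyme that oxidises retinaldehyde to retinoic acid, and *Crabp1*, a cytosolic carrier of retinoic acid. They are 7 of the 14425 genes listed in the deposited table, were found there by symbol, and were selected on measured values, since their differences between cells and libraries were already known when the set was drawn up. Levels by library, by *Calb2*, by *Lypd1* and by *Runx1* detection are therefore given as a description, with no test. The cells were neurons of the mouse spiral ganglion, which carry signals from the cochlea to the brain, sorted for the tdTomato reporter and measured with the 10x Genomics 3′ v3 single-cell assay. There was 1 library for each of 2 genotypes. Control mice (iCON) had the genotype Runx1-CreER/+; Ai14/+. The other mice (iCKO) had Runx1-CreER/Runx1F; Ai14/+, and so carried a floxed *Runx1* allele besides the same driver and reporter. Both received tamoxifen on postnatal day 1, and cochleae of both sexes were taken on postnatal days 27 to 29. The number of animals behind each library is not given in the sources used here. Cre is driven by *Runx1* itself, so the reporter is designed to mark cells in which *Runx1* was active around the time of tamoxifen.

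Retinoic acid receptors bind retinoic acid and sit on DNA as heterodimers with retinoid X receptors. Retinoid X receptors also pair with thyroid hormone receptors and other nuclear receptors, so they are a shared partner of several hormone pathways. *Rarb* is itself a classical target gene of retinoic acid. In the spiral ganglion, *Rxrg* is used together with *Calb2* (calretinin) as a marker of the type Ia neurons, *Lypd1* as a marker of type Ic neurons, and *Prph*, *Gata3* and *Th* as markers of type II neurons, which contact outer hair cells.

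The promoters of *Rarb* and *Rxrg* are shown because both genes were at a higher level in the iCKO library, and a RUNX motif is among those searched because *Runx1* is the targeted gene. RefSeq promoter windows, from 250 bases before to 50 bases after a gene start, were matched by symbol for 7 of 7 genes (GRCm38.p6). Capitals mark matches to any of 3 motifs, searched on both strands: the direct repeat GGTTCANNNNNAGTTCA of the retinoic acid response element, the nuclear receptor half-site AGGTCA, and the RUNX core TGTGGT. These letter strings do not overlap in the windows shown.
*Rarb*, chr14:16575427-16575726, minus strand: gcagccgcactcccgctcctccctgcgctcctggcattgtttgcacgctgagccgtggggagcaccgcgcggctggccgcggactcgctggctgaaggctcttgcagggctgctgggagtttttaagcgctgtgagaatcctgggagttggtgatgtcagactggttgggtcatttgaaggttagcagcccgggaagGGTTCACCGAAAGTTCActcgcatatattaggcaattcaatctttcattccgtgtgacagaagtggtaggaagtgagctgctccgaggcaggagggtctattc
*Rxrg*, first start, chr1:167598112-167598411, plus strand: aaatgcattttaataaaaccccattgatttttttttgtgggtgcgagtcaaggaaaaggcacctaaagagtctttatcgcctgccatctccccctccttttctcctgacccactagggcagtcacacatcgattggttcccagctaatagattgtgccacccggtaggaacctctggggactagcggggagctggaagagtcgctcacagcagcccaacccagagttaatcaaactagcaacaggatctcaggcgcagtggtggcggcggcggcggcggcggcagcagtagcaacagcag
*Rxrg*, second start, chr1:167618015-167618314, plus strand: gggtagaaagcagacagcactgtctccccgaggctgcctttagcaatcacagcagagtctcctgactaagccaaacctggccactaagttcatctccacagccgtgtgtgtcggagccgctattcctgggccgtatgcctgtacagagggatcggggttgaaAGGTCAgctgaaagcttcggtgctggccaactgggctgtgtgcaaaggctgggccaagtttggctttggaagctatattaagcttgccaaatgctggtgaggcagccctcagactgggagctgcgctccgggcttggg

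The direct repeat in the *Rarb* window begins 53 bases before the start and is the textbook retinoic acid response element of this gene. It was found in 2 of 32851 promoter windows of the same length (0.00609%). The half-site in the second *Rxrg* window begins 88 bases before the start, and 16.3% of all windows held this motif at least once. The RUNX core was found in 16.8% of all windows, and in neither *Rxrg* window nor the *Rarb* window. It was present in 1 of the 4 *Rara* windows, 240 bases before the start. A match is a description of letters, and the lack of one says only that these letters are not in the window.

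All 7 genes are protein-coding in the GENCODE M21 annotation of GRCm38. *Rxrg* lies at chr1:167598384-167639623 and *Rxra* at chr2:27676440-27762957, both on the plus strand, and *Rxrb* at chr17:34031812-34038399 on the plus strand. *Rara* lies at chr11:98927818-98974942 on the plus strand, and *Rarb* at chr14:16430839-16819156 on the minus strand. *Aldh1a1* lies at chr19:20492715-20643465 and *Crabp1* at chr9:54764748-54773110, both on the plus strand. An exon of *Rarb* overlaps an exon of *Top2b* on the opposite strand, and the strand setting of the counting is not given in the sources used here. *Top2b* had a mean of 1.17 UMIs (unique molecular identifiers, 1 for each captured RNA molecule) per 10000 in iCON and 1.19 in iCKO, with a log2 ratio of 0.02 (-0.07 to 0.11). The part of shared reads in the values of *Rarb* was not tested. *Rara* and *Aldh1a1* also have overlapping genes, none of which is listed in the table.

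The iCON library held 462 cells with a median of 49725.5 UMIs per cell, and the iCKO library 407 cells with a median of 33602. No cell barcode was shared. All 6 neuron markers were detected in at least 90% of the cells of both libraries, and the 4 markers of myeloid cells and 3 of endothelium were unlisted or in under 2% of cells. The 4 fibroblast markers were all listed, with a summed mean level of 1.05 per 10000 in iCON and 0.790 in iCKO. Of 4 hair cell markers 3 were listed, with a summed mean of 38.1 and 42.2 that came almost wholly from *Pvalb*, a calcium-binding protein gene that spiral ganglion neurons also express. A cluster of 30 iCON and 7 iCKO cells carried 4 of 6 type II markers in at least 10% of its cells and is called type II-like. Against all other cells its type II markers had a mean log2 ratio of 3.53, its neuron markers -1.62 and its glial markers 0.47. Of its 10 genes with the highest ratio 2 were type II markers, and the others included *Myl1*, *Dupd1*, *Hspb1*, *Tnmd* and *Apoe*. The other 432 and 400 cells are called type I. The libraries stood apart in 3 further ways. Of 8 clusters, formed without the retinoid genes, 2 were almost entirely from iCKO and held 148 of its 407 cells against 1 iCON cell. Cells with *Xist* and no Y-linked RNA were 54.5% of iCON and 78.4% of iCKO, and all 30 type II-like cells of iCON had *Xist* whereas all 7 of iCKO had Y-linked RNA. The summed level of 6 glial markers averaged 25.6 per 10000 in iCON and 20.9 in iCKO, and 23.2% and 37.6% of cells had low myelin-gene RNA (under 2 per 10000 over *Mbp* and *Pmp22*, genes and a limit set after the values were seen). *Runx1* itself was at 0.867 UMIs per 10000 in iCON and 1.12 in iCKO. Reads at the 3′ end of a transcript cannot show whether the floxed part is present, so this level checks neither label, and the groups are named here as the libraries labelled iCON and iCKO.

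**Figure D1:**
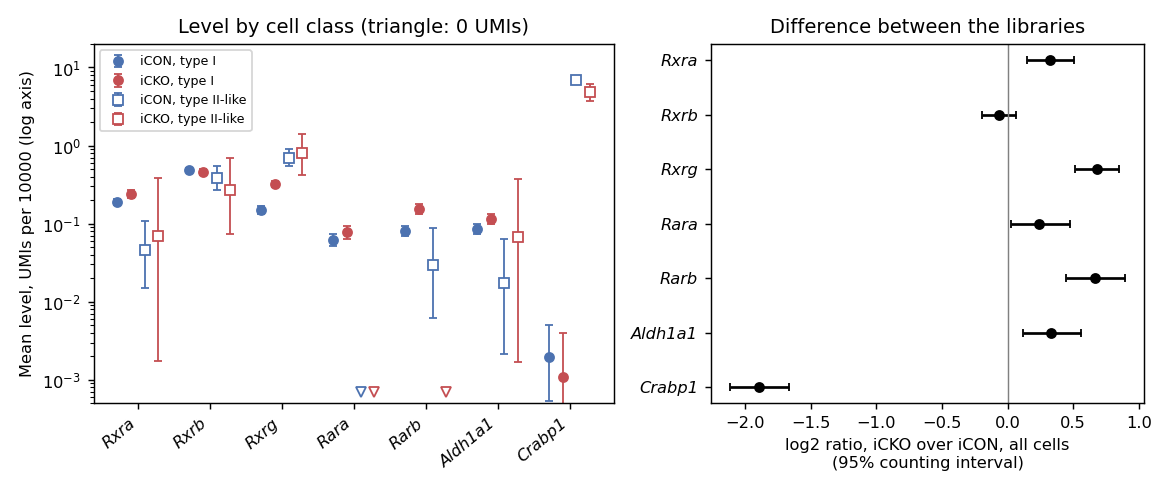
Left, mean level of each gene in UMIs per 10000 (log axis) in type I cells (circles) and type II-like cells (squares) of iCON (blue) and iCKO (red), with 95% Poisson intervals. Triangles mark 0 UMIs. Right, log2 ratio of iCKO over iCON over all cells with its 95% counting interval. *Rxrg* and *Rarb* lie near 0.7 on the right, and *Crabp1* is almost confined to type II-like cells.

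Between the libraries, *Rxrg* and *Rarb* were higher in iCKO, *Crabp1* was lower, and *Rxrb* differed by less than its counting error. Levels are means over cells of UMIs per 10000, and differences are log2 ratios of iCKO over iCON with 0.05 added to each mean. Intervals are at 95% and cover counting error only. *Rxrg* was at 0.186 in iCON (401 UMIs) and 0.329 in iCKO (465 UMIs), with a log2 ratio of 0.68 (0.51 to 0.85). The share of cells with an *Rxrg* UMI was 29.4% in iCON and 48.9% in iCKO, in spite of the lower depth of iCKO. *Rarb* was at 0.0776 (177 UMIs) and 0.152 (209 UMIs), a log2 ratio of 0.66 (0.45 to 0.89). At means this low the *Rarb* ratio depends on the value added: it was 0.17 with 0.5 added and 0.97 with nothing added. *Crabp1* was at 0.448 (695 UMIs) and 0.084 (74 UMIs), a log2 ratio of -1.89 (-2.11 to -1.67).

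The remaining genes differed less. *Rxrb*, the most widely detected of the 7 with a UMI in 90.0% of iCON and 77.9% of iCKO cells, was at 0.476 and 0.453, a log2 ratio of -0.07 (-0.20 to 0.07). *Rxra* was at 0.180 and 0.238, a log2 ratio of 0.32 (0.15 to 0.50). *Rara* was the least abundant in iCON, at 0.0575 against 0.077 in iCKO, with a log2 ratio of 0.24 (0.02 to 0.48). For *Rara* the interval held 0 in type I cells, at 0.20 (-0.02 to 0.44), and without the largest cluster found almost only in iCKO, at 0.20 (-0.03 to 0.47). *Rara* gave 0.38 (0.11 to 0.69) in cells with *Xist* and -0.19 (-0.59 to 0.31) in cells with Y-linked RNA. In type I cells alone these were 0.28 (0.007 to 0.59) and -0.13 (-0.55 to 0.39). *Aldh1a1* was at 0.081 and 0.115, a log2 ratio of 0.33 (0.12 to 0.56). Its direction turned without the largest cluster found almost only in iCKO, at -0.30 (-0.53 to -0.05). Leaving that cluster out also raises the share of cells with low myelin-gene RNA in iCKO, as described below. In cells with Y-linked RNA *Aldh1a1* gave -0.43 (-0.86 to 0.06). The assay captures a transcript at its 3′ end, as 1 UMI whatever its length, so the levels need no division by length. Their order in iCON was *Rxrb*, *Crabp1*, *Rxrg*, *Rxra*, *Aldh1a1*, *Rarb* and *Rara*. Scaled to these means, the counting intervals of neighbours in that order overlapped, except between *Crabp1* and *Rxrg* and between *Rxra* and *Aldh1a1*. By summed UMIs in iCON, *Rxrb* and *Crabp1* stood further apart, at 1041 and 695. In iCKO the order was *Rxrb*, *Rxrg*, *Rxra*, *Rarb*, *Aldh1a1*, *Crabp1* and *Rara*.

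Of the 8318 genes that averaged 0.1 per 10000 or more over the libraries, 1.29% had a log2 ratio of 0.5 or more and 2.95% one of -0.5 or less, around a median of -0.02. Among the retinoid genes 5 pass that minimum, all but *Rara* and *Aldh1a1*. Of these, *Rxrg* and *Rarb* lay past 0.5 and *Crabp1* past -0.5. The set was selected on this difference, so nothing is read from those counts.

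*Rxrg* was almost absent from type I cells with little *Calb2* and present in most cells with much of it, in both libraries. With *Calb2* under 10 per 10000, *Rxrg* was at 0.00556 in 142 iCON cells (3 UMIs) and 0.00946 in 31 iCKO cells (1 UMI). With *Calb2* from 10 to under 100 it was at 0.0503 in 204 iCON cells and 0.0978 in 142 iCKO cells. With *Calb2* of 100 or more it was at 0.627 in 86 iCON cells and 0.502 in 227 iCKO cells. The share of cells with an *Rxrg* UMI went through the same steps, from 2.11% to 16.7% to 86.0% in iCON and from 3.23% to 20.4% to 72.2% in iCKO. High over low *Calb2* gave a log2 ratio of 3.61 (2.24 to 5.81) in iCON and 3.21 (1.23 to 8.39) in iCKO. A log2 ratio of 1 or more in this contrast was found for 1.07% of the genes past that minimum in iCON and 1.15% in iCKO, and *Rxrg* was the 1 retinoid gene among them.

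The higher library mean of *Rxrg* in iCKO went with a larger number of cells with high *Calb2*. Over those cells as a class its level was lower, not higher, though in those with *Xist* the log2 ratio was -0.01 (-0.25 to 0.24). Cells with high *Calb2* were 19.9% of iCON type I cells and 56.8% of iCKO type I cells. They held 84.5% of the type I *Rxrg* UMIs in iCON and 90.1% in iCKO. Within this class *Rxrg* had a log2 ratio of iCKO over iCON of -0.30 (-0.50 to -0.09), although median *Calb2* was much the same, at 209.5 and 203.4 per 10000. The class was made up of different clusters. Of it, 93.0% in iCON and 60.8% in iCKO lay in 2 clusters that held at least 20 such cells of each library. In iCKO 28.6% lay in the clusters found almost only there. Within the 2 clusters with at least 20 such cells of each library, high-*Calb2* cells gave -0.28 (-0.60 to 0.03) and -0.40 (-0.74 to -0.04). Another shared cluster gave 0.17 (-1.29 to 3.09) from 2 iCON and 24 iCKO cells. Without the clusters found almost only in iCKO the class gave -0.34 (-0.56 to -0.11). Giving the 3 *Calb2* classes equal weight in both libraries turned the log2 ratio from 0.68 to -0.08 over all cells, and from 0.89 to -0.13 in type I cells. Without the 2 clusters found almost only in iCKO it was 0.72. Among Y-linked type I cells, high-*Calb2* cells were 28 of 202 in iCON and 39 of 75 in iCKO. *Rxrg* was nonetheless at 0.140 and 0.149 in these Y-linked type I cells, a log2 ratio of 0.07 (-0.34 to 0.49). In cells with low myelin-gene RNA *Rxrg* was at 0.337 in iCON and 0.321 in iCKO, with a log2 ratio of -0.06 (-0.34 to 0.22), and in the other cells at 0.141 and 0.334, with a log2 ratio of 1.01 (0.79 to 1.23).

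Among finer steps of *Calb2*, the lower level in iCKO left out 0 in 1 of the 3 steps from 100 upward. From 100 to 200 per 10000, *Rxrg* was at 0.485 in 40 iCON cells and 0.316 in 110 iCKO cells, a log2 ratio of -0.55 (-0.90 to -0.18). From 200 to 300 it was at 0.710 in 43 cells and 0.638 in 99 cells, a difference of -0.14 whose interval (-0.41 to 0.13) holds 0. At 300 or more it was at 1.34 in 3 cells and 0.891 in 18 cells, a difference of -0.56 (-1.23 to 0.16). Below 100 the iCKO values were the higher ones. From 10 to 30, *Rxrg* was at 0.015 in 64 iCON cells (5 UMIs) and 0.0818 in 30 iCKO cells (8 UMIs), a log2 ratio of 1.02 (0.18 to 2.50) that rests on few UMIs. From 30 to 100 it was at 0.0665 in 140 cells and 0.102 in 112 cells, a difference of 0.39 whose interval (-0.03 to 0.87) holds 0. Whether the relation of *Rxrg* to *Calb2* differed between the libraries was not tested.

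**Figure D2:**
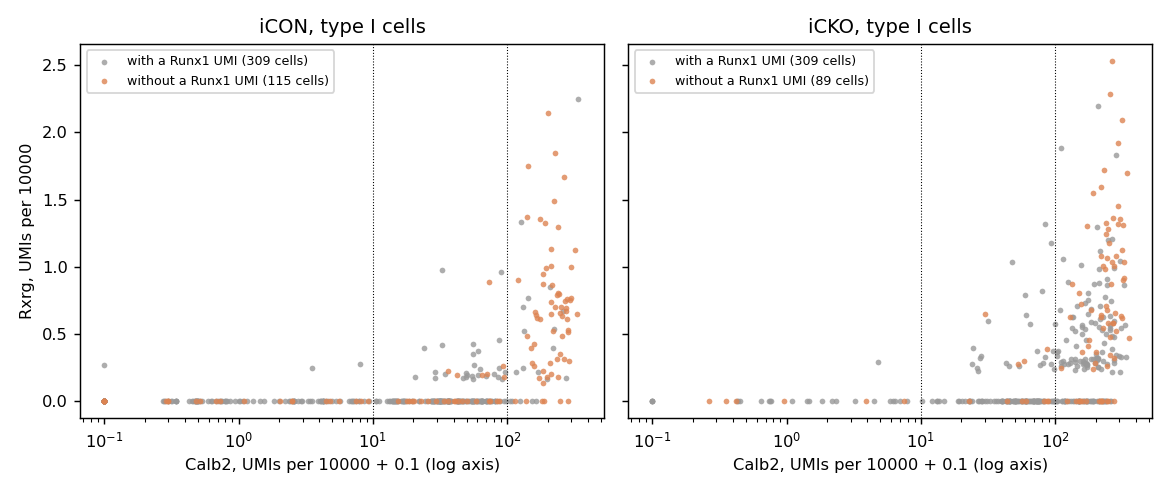
Each point is a type I cell with at least 20000 UMIs, with *Calb2* per 10000 plus 0.1 on the x axis (log axis) and *Rxrg* per 10000 on the y axis, iCON left and iCKO right. Orange cells had no *Runx1* UMI among 20000 drawn at random and grey cells had at least 1. Nearly all cells with *Rxrg* lie right of 10, and most right of 100; in that region iCON points are mostly orange and iCKO points mostly grey.

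The lower level within high-*Calb2* cells was seen in cells with Y-linked RNA and not in cells with *Xist*. In *Xist* cells it averaged 0.562 in 56 iCON cells and 0.556 in 186 iCKO cells, a log2 ratio of -0.01 (-0.25 to 0.24). In cells with Y-linked RNA it averaged 0.754 in 28 iCON cells and 0.262 in 39 iCKO cells, a log2 ratio of -1.37 (-1.87 to -0.87). The difference between these ratios was not tested. The number of animals of each sex in a library is unknown, so sex and animal cannot be told apart here. In the middle *Calb2* class, *Rxrg* was higher in iCKO among *Xist* cells (0.041 and 0.117, log2 ratio 0.88, 0.34 to 1.57), whereas Y-linked cells gave -0.35 (-0.92 to 0.57) from 31 and 3 UMIs.

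*Rxrg* was low in type I cells rich in the type Ic marker *Lypd1*, in both libraries. Among type I cells with *Lypd1* under 1 per 10000, *Rxrg* was at 0.279 in 226 iCON cells and 0.454 in 254 iCKO cells. Among those with *Lypd1* of 10 or more it was at 0.00776 in 180 iCON cells (7 UMIs) and 0.0589 in 126 iCKO cells (26 UMIs). Low over high *Lypd1* gave a log2 ratio of 2.51 (1.67 to 3.70) in iCON and 2.21 (1.71 to 2.79) in iCKO, and 0.625% and 0.529% of the genes past the minimum of 0.1 reached 1 in these contrasts. Within the *Lypd1*-rich cells *Rxrg* was higher in iCKO, with a log2 ratio of 0.91 (0.37 to 1.87). These cells too lay in different clusters: 0.556% in iCON and 51.6% in iCKO were in the clusters found almost only in iCKO, without which the ratio was 0.59 (0.09 to 1.55) from 7 and 8 UMIs. In the cluster that held 76.7% of them in iCON and 15.9% in iCKO, *Rxrg* had 3 UMIs in 138 iCON cells and 0 in 20 iCKO cells. An *Rxrg* UMI was present in 2.78% of them in iCON and 16.7% in iCKO. These cells also had more *Calb2* in iCKO, with a mean of 47.7 per 10000 against 7.39 in iCON.

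High *Calb2* together with *Lypd1* of 1 or more was found in 1 iCON cell and 26 iCKO cells. The iCON cell and 1 of the iCKO cells were called as doublets, droplets that may hold 2 cells. In the 26 iCKO cells *Rxrg* was at 0.220 (20 UMIs), and at 0.211 in the 25 not called as doublets, against 0.539 in the 201 iCKO cells with high *Calb2* and *Lypd1* under 1. Leaving the mixed cells out, the high-*Calb2* cells still had less *Rxrg* in iCKO than in iCON, 0.539 against 0.632, a log2 ratio of -0.21 (-0.42 to -0.004).

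*Rxrg* was lower in type I cells with *Runx1* RNA than in those without it, in both libraries. After each cell was thinned to 20000 UMIs, which makes detection comparable between libraries, *Rxrg* was at 0.465 in 115 iCON type I cells without a *Runx1* UMI and 0.0647 in 309 cells with one. In iCKO it was at 0.596 in 89 cells without and 0.222 in 309 cells with one. With over without gave a log2 ratio of -2.17 (-2.46 to -1.84) in iCON and -1.25 (-1.55 to -0.93) in iCKO. A log2 ratio of -1 or less in this contrast was found for 0.24% of the genes past the minimum in iCON and 0.0721% in iCKO, and *Rxrg* was the 1 retinoid gene among them. Repeating the random thinning 10 times gave -2.17 to -1.65 in iCON and -1.69 to -1.05 in iCKO.

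Seen from the *Rxrg* side, 78 iCON and 148 iCKO type I cells had an *Rxrg* UMI after thinning. Of these, 30.8% (20.8% to 42.2%) also had a *Runx1* UMI in iCON and 64.9% (56.6% to 72.5%) in iCKO. In the cells without *Rxrg*, *Runx1* was detected in 82.4% and 85.2%, which is close between the libraries. The median *Calb2* of the *Rxrg* cells was 185 per 10000 in iCON and 212 in iCKO, and *Lypd1* was under 1 in 93.6% and 85.8% of them. They differed in sex-linked RNA: 53.8% (42.2% to 65.2%) in iCON and 89.2% (83.0% to 93.7%) in iCKO were *Xist* cells, and the part of this in the *Runx1* shares was not tested. The background for *Runx1* detection is given by the type II-like cells, which had 0 *Runx1* UMIs in 30 iCON and 7 iCKO cells at median depths of 31229 and 20915.

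High-*Calb2* cells had little *Runx1* in iCON (0.160 per 10000, against 1.003 in iCKO), so the *Runx1* contrast was repeated within that class. Within the high-*Calb2* class of iCKO, *Rxrg* was at 0.715 in 72 cells without a *Runx1* UMI and 0.358 in 155 cells with one, a log2 ratio of -0.91 (-1.25 to -0.55), with -1.32 to -0.81 over 10 thinnings. Mean *Calb2* in these 2 sets of cells was 236 and 189 per 10000. In iCON the same class gave 0.785 in 65 cells and 0.579 in 19 cells, a log2 ratio of -0.41 (-1.07 to 0.22). That value had no stable direction, with -0.41 to 0.18 and a median of 0.04 over 10 thinnings. In high-*Calb2* cells without a *Runx1* UMI, *Rxrg* had a log2 ratio of iCKO over iCON of -0.13 (-0.50 to 0.26), and in those with one -0.62 (-1.19 to 0.03), from 65 and 72 cells and from 19 and 155 cells. Both intervals hold 0.

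**Figure D3:**
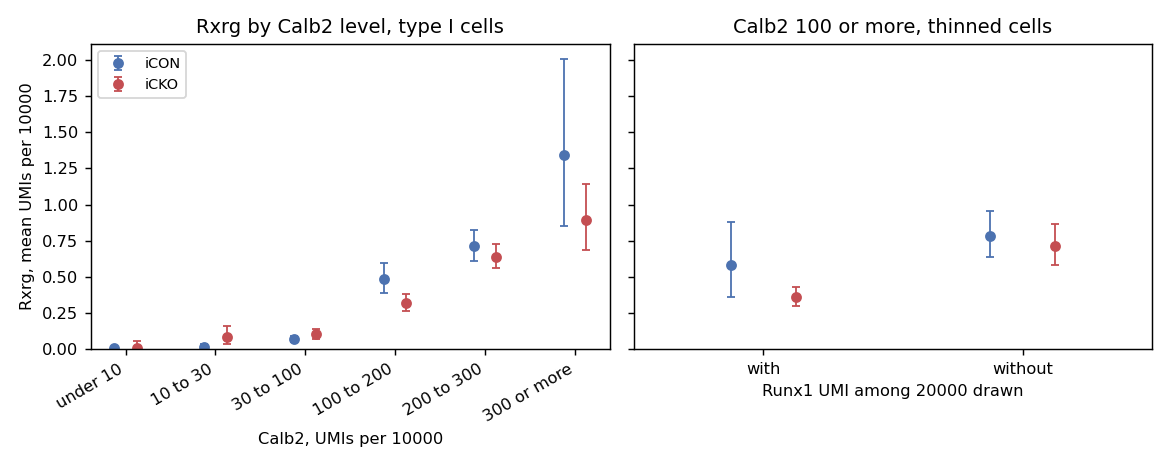
Mean *Rxrg* per 10000 with 95% Poisson intervals in iCON (blue) and iCKO (red), by step of *Calb2* in type I cells (left) and, within *Calb2* of 100 or more, by detection of *Runx1* in thinned cells (right). By point value iCKO lies above iCON below 100 and below it from 100 upward. On the right the lowest of the 4 values is 0.358, in iCKO cells with *Runx1*.

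Type II-like cells had *Rxrg* in the range of the high-*Calb2* type I cells, with hardly any *Calb2*. It was at 0.702 in 30 iCON cells and 0.803 in 7 iCKO cells, and 83.3% and 71.4% of them had a UMI. Their mean *Calb2* was 0.476 and 1.47 per 10000. Over type I cells the log2 ratio of *Rxrg* was 1.91 (1.53 to 2.27) in iCON and 1.20 (0.32 to 1.99) in iCKO. Since the iCON library held more of these cells, the library difference in *Rxrg* was larger among type I cells alone, at 0.150 and 0.320, a log2 ratio of 0.89 (0.71 to 1.07). Of these, *Xist* cells were at 0.158 and 0.366, a log2 ratio of 1.0 (0.78 to 1.23), and Y-linked cells at 0.140 and 0.149, a log2 ratio of 0.07 (-0.34 to 0.49). The difference between these ratios was not tested.

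The rule for naming the genes most like a member asked for a mean of at least 0.5 per 10000 and a UMI in at least 25% of iCON cells, and none of the 7 genes met it. Likeness to *Rxrg* was added after its values were seen. Across 432 iCON type I cells, among 3588 genes, the highest Spearman correlations with *Rxrg* were those of *Calb2* (0.65), *Zfp804a* (0.54), *Mdga1* (0.54), *Cd24a* (0.53) and *Nefm* (0.46). In 400 iCKO type I cells the same genes gave 0.62, 0.52, 0.43, 0.49 and 0.26. The most negative in iCON were *Ntng1* (-0.60), *Slc17a6* (-0.54), *Ostf1* (-0.54), *Faim2* (-0.53) and *Pcsk2* (-0.53). *Rxrg* gave -0.45 with *Lypd1* and -0.42 with *Runx1* in iCON, and -0.47 and -0.24 in iCKO. The cells share a library and differ in depth, so these are descriptions.

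*Rarb* was higher in iCKO in every *Calb2* class, unlike *Rxrg*. With low *Calb2* it was at 0.0933 in iCON and 0.200 in iCKO (log2 ratio 0.80, 0.18 to 1.44). With middle *Calb2* it was at 0.0771 and 0.137 (0.56, 0.21 to 0.94), and with high *Calb2* at 0.0694 and 0.160 (0.81, 0.40 to 1.29). Among the 5 type I clusters with at least 5 cells of each library, it was higher in iCKO in 4, and the exception rested on 1 UMI in 11 iCKO cells. Without the 2 clusters found almost only in iCKO the log2 ratio was 0.67, close to that over all cells. It was 1.15 (0.68 to 1.70) in cells with low myelin-gene RNA and 0.51 (0.26 to 0.78) in those with high.

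Within iCKO, *Rarb* was higher in cells rich in *Lypd1* and, among high-*Calb2* cells, in those with *Runx1* RNA, where *Rxrg* was lower. It did not follow *Calb2* there: high over low gave -0.25 (-0.75 to 0.37) and high over middle 0.16 (-0.16 to 0.52). *Rarb* was at 0.218 in cells with *Lypd1* of 10 or more and 0.118 in cells with *Lypd1* under 1, a log2 ratio of -0.68 (-0.96 to -0.37) for low over high. In iCON the same classes were at 0.0938 and 0.0725, a log2 ratio of -0.23 whose interval (-0.48 to 0.06) holds 0. In thinned high-*Calb2* cells of iCKO, *Rarb* was at 0.213 with a *Runx1* UMI and 0.0903 without, a log2 ratio of 0.91 (0.25 to 1.75), with 0.85 to 1.33 over 10 thinnings. Over all thinned type I cells of iCKO it was at 0.173 and 0.107, a log2 ratio of 0.51 whose interval (-0.01 to 1.15) holds 0, with 0.46 to 0.96 over 10 thinnings. In iCON the cells with and without *Runx1* were at 0.0744 and 0.0696, a log2 ratio of 0.06 (-0.39 to 0.67).

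The library difference in *Rarb* was beyond counting error in *Xist* cells, and in cells with Y-linked RNA it was not. In *Xist* cells it was at 0.0624 in iCON and 0.167 in iCKO, with a log2 ratio of 0.95 (0.66 to 1.27). In Y-linked cells it was at 0.0959 (96 UMIs) and 0.0945 (24 UMIs), a log2 ratio of -0.01 (-0.44 to 0.45). That iCKO value includes the 7 type II-like cells, which had no *Rarb* UMI. In type I cells alone the ratios were 0.90 (0.60 to 1.22) in *Xist* cells and 0.07 (-0.37 to 0.55) in Y-linked cells. By *Calb2* class the Y-linked type I cells gave 0.51 (low), 0.07 (middle) and 0.29 (high), each with an interval that holds 0. The difference between these ratios was not tested. In type II-like cells *Rarb* had 3 UMIs in iCON and 0 in iCKO, and at 7 cells a level like that of type I cells could not be told from its absence.

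**Figure D4:**
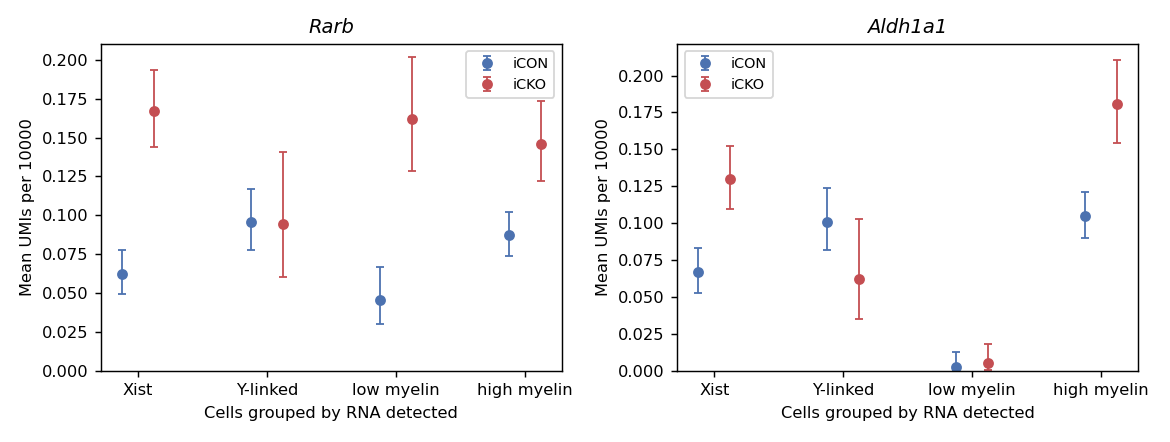
Mean level of *Rarb* (left) and *Aldh1a1* (right) in UMIs per 10000 with 95% Poisson intervals, in iCON (blue) and iCKO (red), for cells with *Xist*, cells with Y-linked RNA, and cells with low or high myelin-gene RNA. *Rarb* is higher in iCKO in 3 of the 4 pairs, the exception being Y-linked cells. *Aldh1a1* is near 0 in cells with low myelin-gene RNA.

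*Aldh1a1* RNA was found almost only in cells that also carried myelin-gene RNA. In type II-like cells it was at 0.0175 (2 UMIs) in iCON against 0.0854 in type I cells, a log2 ratio of -1.0 (-1.38 to -0.25), and at 0.0675 (1 UMI) against 0.116 in iCKO, where the interval holds 0. Of the type II-like cells, 16 of 30 in iCON and 6 of 7 in iCKO had low myelin-gene RNA, against 23.2% and 37.6% of all cells. The part of myelin-gene RNA in the type II-like difference was not tested. Cells with low myelin-gene RNA held 1 of 176 UMIs in iCON and 2 of 164 in iCKO, although they were 107 and 153 cells. In the other cells it was at 0.105 in iCON and 0.181 in iCKO, with a log2 ratio of 0.58 (0.33 to 0.83). These other cells include all but 1 of the 102 iCKO cells of a cluster found almost only in iCKO, described below. By *Calb2*, *Aldh1a1* was lower in the high than in the middle class of iCON, at 0.060 against 0.104, a log2 ratio of -0.48 (-0.80 to -0.12). Low myelin-gene RNA was found in 33.7% of that high class and 20.6% of that middle class, and its part in the difference was not tested. In iCKO high over middle *Calb2* gave -0.11 (-0.42 to 0.26), and high over low *Calb2* had an interval holding 0 in both libraries. Contrasts by *Lypd1* and *Runx1* had intervals holding 0: low over high *Lypd1* gave 0.04 (-0.23 to 0.36) in iCON and -0.12 (-0.44 to 0.25) in iCKO, and with over without *Runx1* gave 0.40 (-0.11 to 1.11) and 0.11 (-0.37 to 0.74). Spearman correlations with these 3 genes lay between -0.06 and 0.05 over all UMIs of a cell, and between -0.05 and 0.09 in thinned cells.

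The direction of the *Aldh1a1* library difference rested on 1 cluster. That cluster held 102 iCKO cells and 1 iCON cell, and 108 of the 164 *Aldh1a1* UMIs of iCKO (65.9%), at a level of 0.289 per 10000. Of its iCKO cells 101 had *Xist* and 0 had Y-linked RNA alone, and 1 had low myelin-gene RNA. Leaving the cluster out thus raises the share of low-myelin cells in iCKO, and those cells held almost no *Aldh1a1*. Without that cluster *Aldh1a1* was at 0.0812 in iCON and 0.0564 in iCKO, with a log2 ratio of -0.30 (-0.53 to -0.05), against 0.33 over all cells. Without both clusters found almost only in iCKO it was -0.46 (-0.69 to -0.19), and without the other of them alone 0.33. Shared clusters with no low-myelin cell had no common direction. They gave 0.47 (-0.31 to 1.29), -0.28 (-0.77 to 0.26), and 70 UMIs in 130 iCON cells against 0 in 11 iCKO cells. In *Xist* cells *Aldh1a1* was at 0.0667 and 0.130, and in Y-linked cells at 0.101 and 0.0622. The part of myelin-gene RNA, sex or animal in the difference was not tested.

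*Crabp1* was a gene of the type II-like cells. Of its UMIs 691 of 695 in iCON (99.4%) and 72 of 74 in iCKO (97.3%) were in that cluster, which was formed without it. The level there was 6.88 per 10000 ± 7.41 (SD over 30 cells) in iCON, with a range of 0 to 34.4 and a median of 4.99. In the 7 iCKO cells it was 4.82 ± 3.11 (SD over cells), with a range of 1.75 to 10.0 and a median of 2.97. The ranges overlapped: 6 of the 30 iCON cells lay above the highest iCKO cell and 5 below the lowest. The log2 ratio within the cluster was -0.51 (-0.87 to -0.16), an interval that covers the counting of UMIs and not the spread between cells. Type I cells held *Crabp1* in 4 of 432 iCON cells, at 1 UMI each, and in 1 of 400 iCKO cells, at 2 UMIs.

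The lower library mean of *Crabp1* in iCKO thus went with the number of type II-like cells, which were 6.49% (4.42% to 9.14%) of iCON and 1.72% (0.69% to 3.51%) of iCKO. Because these cells were all *Xist* cells in iCON and all Y-linked in iCKO, the ratio within *Xist* cells was -4.08 and that within Y-linked cells 3.14. Both have the same source, and neither describes *Crabp1* within a cell. No *Runx1* UMI was found in any type II-like cell, and how such cells came to carry the reporter was not tested.

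Among the other retinoid X receptors, *Rxra* was at a lower level in the high-*Calb2*, low-*Lypd1* and type II-like cells, where *Rxrg* was high, though not always beyond counting error. In iCON it was at 0.222 with low *Calb2* and 0.154 with high *Calb2*, a log2 ratio of -0.41 (-0.73 to -0.09). In iCKO the values were 0.289 and 0.224, with -0.31 (-0.75 to 0.21). Low over high *Lypd1* gave -0.32 (-0.55 to -0.09) in iCON and -0.28 (-0.55 to -0.003) in iCKO. In type II-like cells of iCON *Rxra* was at 0.0461, from 5 UMIs in 30 cells, against 0.189 in type I cells, a log2 ratio of -1.32 (-1.88 to -0.59). By *Calb2* and *Lypd1* these differences are small beside those of *Rxrg*, which were over 2 on the same scale.

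*Rxra* was higher in iCKO in each *Calb2* class, with log2 ratios of 0.32 (low), 0.41 (middle) and 0.42 (high), the interval of the first holding 0. Over all cells it was 0.39 (0.18 to 0.62) in *Xist* cells and 0.09 (-0.28 to 0.47) in Y-linked cells. In type I cells alone *Rxra* gave 0.29 (0.07 to 0.51) in *Xist* cells and 0.16 (-0.22 to 0.55) in Y-linked cells. The difference between these ratios was not tested. *Rxrb* lay between 0.409 and 0.494 per 10000 in the *Calb2* classes of both libraries, and no contrast by *Lypd1*, *Calb2* or *Runx1* had an interval that left out 0. By sex-linked RNA, *Rxrb* in type I cells was at 0.493 in iCON and 0.422 in iCKO for *Xist* cells, a log2 ratio of -0.20 (-0.36 to -0.04). For Y-linked type I cells it was at 0.464 and 0.603, a log2 ratio of 0.34 (0.08 to 0.60). In type II-like over type I cells *Rxrb* gave -0.28 (-0.74 to 0.16) in iCON and -0.68 (-2.05 to 0.54) in iCKO. *Rara*, with 133 and 110 UMIs in all, gave intervals holding 0 in each contrast by *Calb2*, *Lypd1* and *Runx1*. It had 0 UMIs among type II-like cells of either library. A count of 0 over the 30 iCON cells (3 counts over the group) allows up to 0.0321 per 10000, below the 0.0615 of iCON type I cells, so *Rara* was at least 1.91-fold lower there against this limit. In the 7 iCKO cells it allows up to 0.202, above the 0.0783 of type I cells.

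The other genes of the pathway were given by a list of 47, of which 33 are listed in the table and 17 passed the minimum of 0.1 per 10000. None of the 17 had a log2 ratio of iCKO over iCON past 0.5 in either direction, where 1.29% of all genes tested lay past 0.5 and 2.95% past -0.5, so at 17 genes the count of 0 is near that background. Their median was 0.01 against -0.02 for all genes tested. *Aldh1a3*, another retinaldehyde dehydrogenase, was the most abundant, at 2.64 in iCON and 2.40 in iCKO (log2 ratio -0.13, -0.19 to -0.07). It was thus detected far above *Aldh1a1* in these neurons, on the same scale of UMIs per 10000. It was at 2.78 in type I and 0.530 in type II-like cells of iCON, and at 2.44 and 0.257 in iCKO. *Fabp5*, a fatty acid binding protein that also carries retinoic acid, went the other way, at 0.390 in type I and 2.16 in type II-like cells of iCON and 0.573 and 2.38 in iCKO.

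Partners of retinoid X receptors were measured too. *Thra*, a thyroid hormone receptor, was at 0.713 in iCON and 0.564 in iCKO, with a log2 ratio of -0.31 (-0.43 to -0.20). *Thrb*, the thyroid hormone receptor known for its role in hearing, was at 0.157 and 0.146, and had 0 UMIs among type II-like cells of either library against 344 and 203 in type I cells. *Ppard*, a fatty acid receptor, was at 0.125 and 0.168, a log2 ratio of 0.32 (0.12 to 0.52). *Ncoa1*, a coactivator of nuclear receptors, was at 0.835 and 1.01 (0.26, 0.16 to 0.35), and *Ncor1*, a corepressor, at 1.52 and 1.54 (0.02, -0.06 to 0.09). Type II-like cells thus had *Rxrg*, *Crabp1* and *Fabp5* above, and *Rxra*, *Rara*, *Aldh1a1*, *Thrb* and *Aldh1a3* below, the levels of type I cells in both libraries, though in iCKO the intervals for *Rxra* and *Aldh1a1* hold 0, and *Rara* and *Thrb* rest on 0 UMIs in 7 cells. Of the type II-like cells, 16 of 30 in iCON and 6 of 7 in iCKO had low myelin-gene RNA. Cells with low myelin-gene RNA had almost no *Aldh1a1* in either library, and the part of this was not tested.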

How the data were processed

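Per the submitters' processing notes, the authors used Cell Ranger, Seurat and mm10, with no versions or filters given. The deposited expression table holds, for each cell, the natural log of 1 plus CPM over the listed genes. This was read from the values: linear values sum to 1000000 in each cell, and 100% of nonzero values are whole multiples of the cell's smallest step within 1e-06, so whole UMI counts were recovered. The authors' other deposited table gives each of the 869 cells its library. No test was possible with 1 library per group. The 95% intervals (exact Poisson, Clopper-Pearson, and conditional binomial for ratios) cover counting error only, and UMI floors take 3 counts for a count of 0. Clustering used scanpy 1.11.5 and leidenalg 0.10.2 with 2000 variable genes, 20 components, 15 neighbours and resolution 0.5, leaving out retinoid and marker genes. Cells were thinned with seed 1, leaving 454 iCON and 405 iCKO cells. Scrublet called 2 and 4 cells as doublets, which were kept. The genes described and the lists were chosen with earlier results of these data known. The named genes were the 7 members, the pathway list, and the 5 genes most like a member. Of the glial list, 2 genes are not reported here. Ratios were checked on simulated counts with known changes. Alternatives changed the pseudocount, cells, classes, depth and minimum level.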

Additional observations from a re-analysis of the deposited data

Results flagged for a closer look

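*Rxrb* had a log2 ratio of iCKO over iCON of -0.17 in cells with *Xist* and 0.28 in cells with Y-linked RNA, so that the direction differed between the groups of cells. The intervals were -0.33 to -0.006 and 0.02 to 0.54. The difference was not tested.

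*Crabp1* had a log2 ratio of -4.08 in cells with *Xist* and 3.14 in cells with Y-linked RNA, which again are opposite directions, and the difference was not tested. The iCON side of the first ratio held 693 UMIs and the iCKO side of the second 72, and 691 and 72 UMIs of the libraries lay in the type II-like cells.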

How the results depend on the processing

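Of 153 recomputed ratios, 101 stayed within the counting interval of the value reported, 47 left it and 5 changed direction from a ratio past the limit used. Of 17 recomputed shares and counts, 16 stayed within 1.5 times. The other was the share of genes with a log2 ratio of -1 or less by *Runx1* in iCKO. It went from 0.0721% to 0.0281% with a minimum mean of 0.5 per 10000. The *Rxrg* ratio of iCKO over iCON (0.68) became 0.27 with a pseudocount of 0.5, 0.49 in thinned cells (0.49 to 0.82 over 10 thinnings), 0.89 in type I cells, 0.42 in Y-linked cells (0.07 in those of type I), and 1.01 and -0.063 in cells with high and low myelin-gene RNA. It became -0.076 with equal weights for the *Calb2* classes and -0.13 with these weights in type I cells. In Y-linked cells *Rarb* gave -0.013 and *Crabp1* 3.14. Without the clusters of 1 library *Aldh1a1* gave -0.46, and -0.30 without the larger of them. *Rxrg* by *Lypd1* became 4.02 in iCON with a pseudocount of 0.01, 0.62 in iCON and 0.77 in iCKO with 0.5, and 1.60 in iCKO by detection of *Lypd1* in thinned cells. By *Calb2* it became 1.94 in iCON over all cells, which adds the type II-like cells to the low class, and 1.16 and 0.98 with a pseudocount of 0.5. By *Runx1* it became -2.47 in iCON with at least 2 UMIs required, -1.60 in iCKO with all UMIs of a cell, -0.41 and -0.91 in the high *Calb2* class, and -0.77 and -0.60 with a pseudocount of 0.5. Beyond the construction of each alternative the cause was not tested. The repeats of the thinning, the clusters of 1 library, the type I cells by sex-linked RNA, the high-*Calb2* cells without doublets, the classes by cluster, the weights within type I cells, the finer *Calb2* steps and the likeness to *Rxrg* were chosen after the data were seen. So were the removal of called doublets over all cells and equal weights for *Xist* and Y-linked cells. These equal weights took *Crabp1* from -1.89 to -0.85 and *Rxrb* from -0.07 to 0.07. No paired analysis was possible because there is 1 library per group. *Rara*, *Rarb* and *Rxra* in type II-like cells, and *Rxrg* at low *Calb2*, rest on 5 UMIs or fewer, and no replicate library shows how far 2 libraries of 1 genotype would differ.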

Other observations

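The type II-like cells had retinoid genes outside the 7 members as well. *Crabp2*, a carrier related to *Crabp1*, had 8 of its 9 iCON UMIs in the 30 type II-like cells, at 0.0866 per 10000 there, and 2 of its 3 iCKO UMIs in the 7 type II-like cells. *Nr4a1*, an immediate early gene whose product can pair with retinoid X receptors, was at 0.0225 in iCON (48 UMIs) and 0.00759 in iCKO (10 UMIs). Both levels are under the minimum of 0.1 and under the 0.05 added for ratios, so no ratio is given.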
